A study of Mus musculus with 14 samples.

Results

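Nr1d1 and Nr1d2, which encode the nuclear receptors REV-ERBα and REV-ERBβ, were followed in ileum mucosa RNA together with 5 clock genes, Arntl, Clock, Npas2, Nfil3 and Cry1. The 7 genes were picked by name from the 54532 genes of the count table, and their differences between genotypes were already known when they were picked, so these differences are given as descriptions. IKO mice (n = 7) carried floxed Ncor1 alleles and a Cre recombinase under the villin promoter, which is active in the epithelium of the intestine. WT mice (n = 7) carried the floxed alleles without Cre. All 14 mice were males fed the HFD, with 60% of its energy as fat, for 15 weeks, under 12 h of light and 12 h of dark. The study's methods give an age of 7 to 8 weeks at the start of the diet, while a figure legend describes older mice. Each library came from 1 mouse, and the clock hour at which the tissue was taken is not given in the sources used here.

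The circadian clock is a loop of transcription factors that runs in most cells. BMAL1, encoded by Arntl, pairs with CLOCK or its relative NPAS2 and activates genes with E-boxes, among them the Per and Cry genes, whose products inhibit the activators, and Nr1d1 and Nr1d2. The REV-ERB receptors bind ROR elements and recruit NCoR1 with the histone deacetylase HDAC3 to repress genes such as Arntl, Npas2, Nfil3 and Cry1, while the ROR receptors activate through the same elements. NFIL3 represses genes with D-boxes, which DBP, TEF and HLF activate, and in the intestine it is known for its part in lipid uptake.

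Between 14749669 and 21557468 reads per mouse were counted on genes. The mitochondrial genome supplied 50.3% of the counts of IKO 4, 23.9% of those of WT 3 and 3.49% to 10.3% in the other 12 libraries. The summed level of 6 smooth muscle genes was 10855 CPM (the usual unit of counts relative to library size, here with library sizes scaled by TMM factors) in WT 4, 796 CPM in IKO 1 and a median of 22.6 CPM in WT and 10.5 CPM in IKO mice, so WT 4 held far more muscle RNA than the others. The 4 fibroblast genes listed had a median log2 fold change of -1.88, the 6 lymphocyte genes of -1.61 and the 4 genes of crypt and dividing cells of -1.04 (summed medians of 259 CPM in WT and 134 CPM in IKO mice). None of them was called, and the part of these cells in the differences was not tested. The 6 enterocyte genes were well expressed in every library, at 13839 to 45262 CPM in sum in WT and 28800 to 38499 CPM in IKO mice. In tissue RNA, fewer cells of a type and less RNA per cell cannot be told apart. Ncor1 itself was at 106 to 195 CPM in WT (median 130) and at 31.7 to 64.0 CPM in IKO mice (median 47.7), with no overlap (log2 fold change -1.41 ± 0.18, SE, standard error). Reads were summed over all of its exons, deleted or not, and cells that keep the allele intact contribute to them.

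The quasi-likelihood test of edgeR was run over 13846 genes, and genes with a Benjamini-Hochberg adjusted p under 0.05 were called. Of the 7 genes, 5 were called higher in IKO mice, 0 lower and 2 not at all. The 5 were Nr1d1, Arntl, Npas2, Nfil3 and Cry1, and the 2 were Nr1d2 and Clock. Among all genes tested, 8.67% were called, 4.38% higher and 4.28% lower in the IKO group, and since the genes were chosen from this contrast, nothing is read from the difference. Every IKO mouse was above every WT mouse for 4 of the 7 (Nr1d1, Arntl, Npas2 and Nfil3), against 1.83% of the genes tested. The median log2 fold change was 1.47 over the 7 genes and -0.09 over all genes tested.

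**Figure D1:**
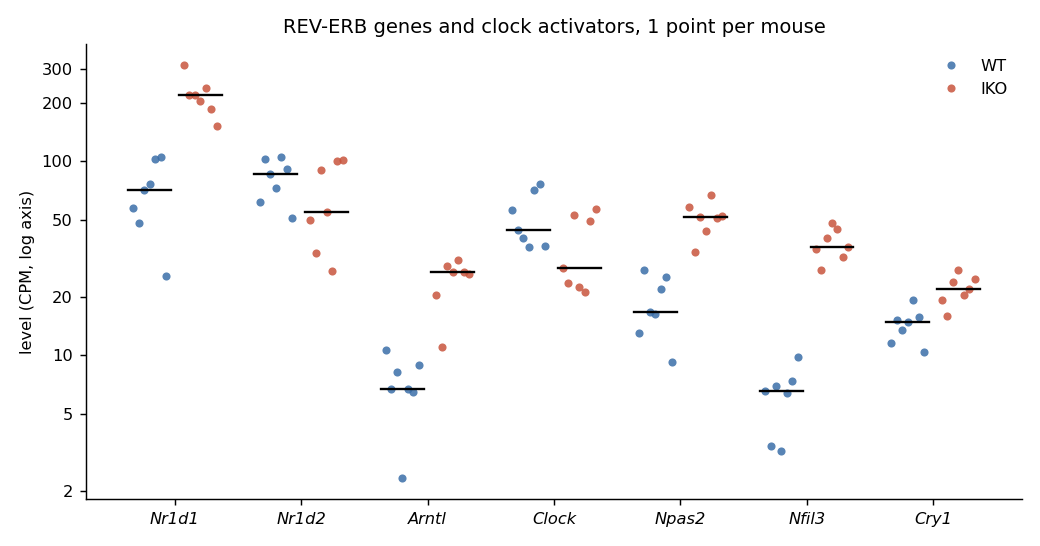
The level of each of the 7 genes in CPM (vertical log axis) in each of the 7 WT (blue) and 7 IKO (red) mice, with black bars at the medians. The IKO points of Nr1d1, Arntl, Npas2 and Nfil3 all sit above the WT points, while those of Nr1d2, Clock and Cry1 overlap them.

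Nr1d1 (ENSMUSG00000020889, chr11:98767932-98775333 of mm10, minus strand), the gene of the repressor REV-ERBα, was at 25.8 to 105 CPM in WT mice, with a median of 70.8, and at 152 to 315 CPM in IKO mice, with a median of 221. WT 7 was the lowest and IKO 1 the highest library, and the lowest IKO mouse, IKO 7, was above the highest WT mouse, WT 6. IKO differed from WT mice by a log2 fold change of 1.66 ± 0.27 (SE) at an edgeR adjusted p of 0.00338, a 3.16-fold difference with a 95% confidence interval of 2.12 to 4.71. The spread among mice was wider in WT (SD 0.70 on the log2 scale) than in IKO mice (SD 0.32). Nr1d1 lies tail to tail with Thra, the gene of thyroid hormone receptor α, on the opposite strand, and 263 of its 3077 exonic bases are also exonic in Thra. Whether strand was used in counting is not stated, so reads from these bases cannot be told apart. Thra was at 76.6 ± 19.9 CPM in WT and 75.6 ± 13.4 CPM in IKO mice (SD, n = 7 each), with a log2 fold change of -0.02 ± 0.19 (SE).

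Nr1d2 (chr14:18204054-18239127, minus strand), the gene of the related repressor REV-ERBβ, went the other way in its fitted value without being called. It was at 51.3 to 105 CPM in WT mice (median 85.6) and at 27.1 to 102 CPM in IKO mice (median 54.9). On the log2 scale the fold change was -0.32 ± 0.29 (SE) at an edgeR adjusted p of 0.478, with a 95% confidence interval of -0.94 to 0.30. The levels of IKO 3, IKO 6 and IKO 7 were 90.4, 101 and 102 CPM, within the WT range. Those of IKO 1, IKO 2 and IKO 5 were 49.8, 33.8 and 27.1 CPM, below every WT mouse, and IKO 4, at 54.9 CPM, was near the lower end of the WT range. The SD among IKO mice was 0.77 on the log2 scale, against 0.39 among WT mice.

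Per length, both REV-ERB transcripts were of a similar order in WT and far apart in IKO mice. The FPKM of Nr1d1 divided by that of Nr1d2 in the same mouse was 0.818 to 2.02 in WT, with a median of 1.64, and 2.63 to 15.4 in IKO mice, with a median of 6.58. The ranges did not overlap, and IKO 5, with the highest ratio, had the lowest Nr1d2 level but not the highest Nr1d1 level.

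Arntl (chr7:113207465-113314126, plus strand), which encodes the activator BMAL1 and is a textbook target of REV-ERB repression, was at 2.33 to 10.7 CPM in WT mice (median 6.70) and at 11.0 to 30.9 CPM in IKO mice (median 26.8). In 6 of 7 IKO mice the level was at least 20.6 CPM, and IKO 2, at 11.0 CPM, was just above the highest WT mouse, WT 1. The log2 fold change was 1.77 ± 0.29 (SE) at an edgeR adjusted p of 0.00322, a 3.42-fold difference (95% confidence interval 2.24 to 5.22). WT 4, the library with the most smooth muscle RNA, had the lowest level. Without WT 4 the log2 fold change was 1.62, and without WT 4 and IKO 4 it was 1.60, so the difference was of nearly the same size without these libraries. An antisense gene, Gm45355, shares 33 exonic bases with Arntl and had 0 or 1 counts in every library.

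The sequences around the start of Arntl are shown because they hold the letters of ROR elements, through which REV-ERB receptors are known to act. The RefSeq promoter table for GRCm38.p6 (the assembly of mm10) gives 300-base windows, from 250 bases before to 50 bases after each start, and all 7 genes matched it with 10 windows. Both strands were searched for TAGGTCA, the core of the ROR element, for the same letters with T in place of C, TAGGTTA, for the E-box CACGTG and for the D-box TTATGTAA. Arntl held TAGGTTA and TAGGTCA, on its own strand and within the part of exon 1 annotated as 5′ untranslated, at chr7:113207505-113207511 and chr7:113207541-113207547. The capitals mark the motif, each sequence is 5′ to 3′ on the strand of the gene, and the flanks are 10 bases on each side.
Arntl TAGGTTA site: ggtcggaaagTAGGTTAgtggtgcgac
Arntl TAGGTCA site: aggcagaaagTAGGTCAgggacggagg
The motif is preceded by the bases gaaag in both sites. Of all 32851 windows, 2.61% held TAGGTCA and 1.44% held TAGGTTA.

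Among the other members, Nfil3 held TAGGTCA on the strand opposite to the gene, so it reads TGACCTA on the strand of the gene, at chr13:52981045-52981051 in annotated exon 1 and 12 bases before the RefSeq start. Cry1 held the E-box CACGTG at chr10:85185109-85185114, 60 bases before its start and outside any annotated exon. Both are given in the same way.
Nfil3 TAGGTCA site, reverse complement in capitals: cgctcggaacTGACCTActaacacaca
Cry1 E-box: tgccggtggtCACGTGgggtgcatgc
CACGTG was found in 7.15% of all windows, and the D-box TTATGTAA in 0.938% of them and in 0 of the 10 windows of the members. For Nr1d1, Nr1d2, Clock and Npas2, none of the 4 motifs was found in these short windows. A match describes letters and is not a bound site, and the windows leave out elements farther from the start.

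Npas2 and Clock, the alternative partners of BMAL1, differed in what they showed. Npas2 (chr1:39193731-39363236, plus strand) was at 9.27 to 27.4 CPM in WT mice (median 16.7) and at 34.2 to 67.4 CPM in IKO mice (median 51.9). All 7 IKO mice were above all WT mice, with WT 7 the lowest and IKO 5 the highest. IKO differed from WT mice by a log2 fold change of 1.47 ± 0.23 (SE) at an edgeR adjusted p of 0.00247, a 2.77-fold difference (95% confidence interval 1.98 to 3.87).

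Clock (chr5:76209868-76304792, minus strand) was at 36.1 to 76.8 CPM in WT mice (median 44.5) and at 21.3 to 57.1 CPM in IKO mice (median 28.3). On the log2 scale the fold change was -0.50 ± 0.27 (SE) at an edgeR adjusted p of 0.223, with a 95% confidence interval of -1.09 to 0.08. In IKO mice the values fell into separate sets, with IKO 1, IKO 2, IKO 4 and IKO 5 at 28.3, 23.7, 22.5 and 21.3 CPM, all below the lowest WT mouse, and IKO 3, IKO 6 and IKO 7 at 53.0, 49.1 and 57.1 CPM. These are the same libraries that were low and high for Nr1d2. Ube2n-ps1, a pseudogene within the span of Clock, shares 0 exonic bases with it.

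Per length, Npas2 and Clock were near parity in WT mice and Npas2 was the more abundant in IKO mice. The FPKM of Npas2 divided by that of Clock was 0.663 to 1.76 in WT (median 0.947, above 1 in 3 of 7 mice) and 2.61 to 9.09 in IKO mice (median 4.14, above 1 in 7 of 7). The FPKM of Arntl was below that of Clock in all 7 WT mice, at a ratio of 0.117 to 0.444. In IKO mice this ratio was 0.843 to 2.65 and above 1 in 3 of 7. Arntl stayed below Npas2 in every mouse, with median ratios of 0.195 in WT and 0.323 in IKO mice.

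Nfil3 (chr13:52967209-52981073, minus strand), the D-box repressor, had the largest fitted difference of the 7 genes. It was at 3.23 to 9.84 CPM in WT mice (median 6.58) and at 27.4 to 48.3 CPM in IKO mice (median 36.0). The lowest IKO mouse, IKO 2, was far above the highest WT mouse, WT 7. The log2 fold change was 2.59 ± 0.24 (SE) at an edgeR adjusted p of 7.58e-05, a 6.01-fold difference (95% confidence interval 4.21 to 8.58). WT 2 and WT 4, at 3.41 and 3.23 CPM, were set apart below the other WT mice. Without WT 4 and IKO 4, which was the highest IKO library, the log2 fold change was 2.41.

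Cry1 (chr10:85131700-85185064, minus strand), a repressor of CLOCK and BMAL1 that is also under REV-ERB control, differed least among the called genes. It was at 10.4 to 19.3 CPM in WT mice (median 14.8) and at 16.0 to 27.4 CPM in IKO mice (median 21.9). The ranges overlapped, and 5 of 7 IKO mice were above the highest WT mouse, WT 5. IKO differed from WT mice by a log2 fold change of 0.61 ± 0.16 (SE) at an edgeR adjusted p of 0.0346, a 1.53-fold difference (95% confidence interval 1.20 to 1.95). This call was lost without WT 4 and IKO 4 (log2 fold change 0.56, adjusted p = 0.0813 from edgeR), which left 4 of the 7 genes called, and it was also lost in 9 of the 14 fits without 1 library.

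**Figure D2:**
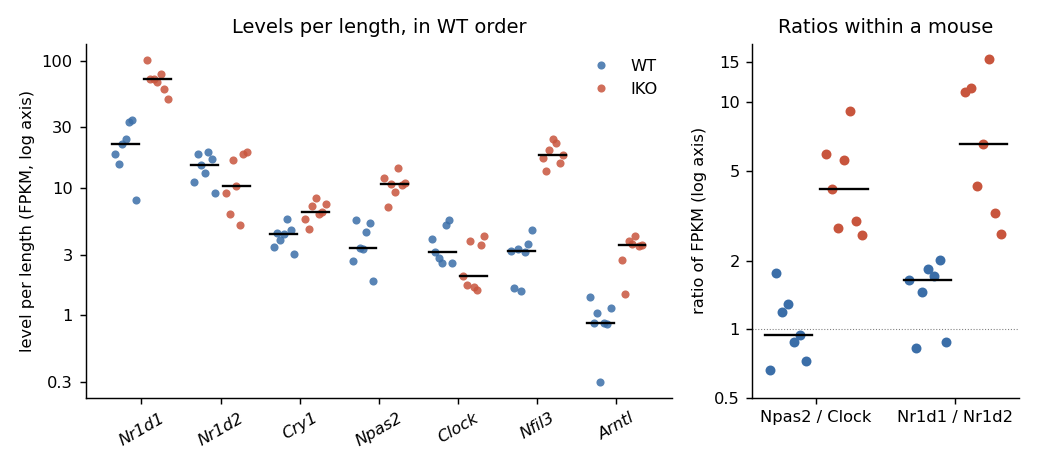
Left, the FPKM of each gene (log axis) in WT (blue) and IKO (red) mice, in the order of the WT means. Right, the ratio of FPKM within each mouse for Npas2 to Clock and for Nr1d1 to Nr1d2 (log axis, dotted line at 1). Bars are medians, and the ratios of the IKO mice lie above those of the WT mice in both pairs.

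The order of the levels per length differed between the genotypes. In WT mice Nr1d1 (22.1 ± 9.29 FPKM, SD, n = 7) and Nr1d2 (14.8 ± 3.77) led, with overlapping ranges, and both lay above the other 5 genes. Cry1 (4.21 ± 0.877), Npas2 (3.79 ± 1.37), Clock (3.69 ± 1.24) and Nfil3 (3.02 ± 1.11) followed with ranges that overlapped from each gene to the next, and Arntl (0.930 ± 0.339) was below all of them. In IKO mice Nr1d1 (71.6 ± 16.1 FPKM) stood alone at the top. Nfil3 (18.7 ± 3.72), the sixth of the WT order, was now next, with a range that overlapped that of Nr1d2 (12.1 ± 5.85), which in turn overlapped that of Npas2 (10.7 ± 2.21). Cry1 (6.61 ± 1.17) was above Arntl (3.27 ± 0.912) in all 7 mice, and Clock (2.66 ± 1.16), whose range overlapped that of Arntl, was last.

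Other clock genes were described for comparison from a list of 26, of which 24 were tested. Of these, 2 were called higher, 1 lower and 21 not at all, and the median log2 fold change was 0.02. Bhlhe40, a repressor that competes for E-boxes, was at 46.5 to 110 CPM in WT and 115 to 163 CPM in IKO mice, with no overlap (log2 fold change 1.01 ± 0.18, SE, at an edgeR adjusted p of 0.00609). Usp2, a ubiquitin protease that acts on clock proteins, had a log2 fold change of 0.75 ± 0.20 (SE) at an edgeR adjusted p of 0.0368, a call that was lost in 8 of the 14 fits without 1 library. Rora, which encodes the activator RORα and binds the same elements as the REV-ERB receptors, was at 0.322 to 6.13 CPM in WT and 0.118 to 1.39 CPM in IKO mice, with a log2 fold change of -2.11 ± 0.57 (SE) at an edgeR adjusted p of 0.0354. Rora was low throughout, and the ranges overlapped. Its call was lost in 8 of the 14 fits without 1 library, among them the fit without WT 4 (adjusted p = 0.0644 from edgeR).

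The Period genes and the D-box activators gave no call. The log2 fold changes were 0.30 for Per1, -0.25 for Per2, -0.60 for Per3 and 0.34 for Cry2. Dbp, which BMAL1 activates, was at 20.7 to 126 CPM in WT and 58.9 to 99.9 CPM in IKO mice, with a log2 fold change of 0.36 ± 0.32 (SE) and a 95% confidence interval of -0.32 to 1.04. For Tef the log2 fold change was 0.02 and for Bhlhe41 -2.45, the latter at an adjusted p of 0.0556 from edgeR. For Hlf it was -1.04, with a 95% confidence interval of -1.96 to -0.12 and an edgeR adjusted p of 0.124.

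**Figure D3:**
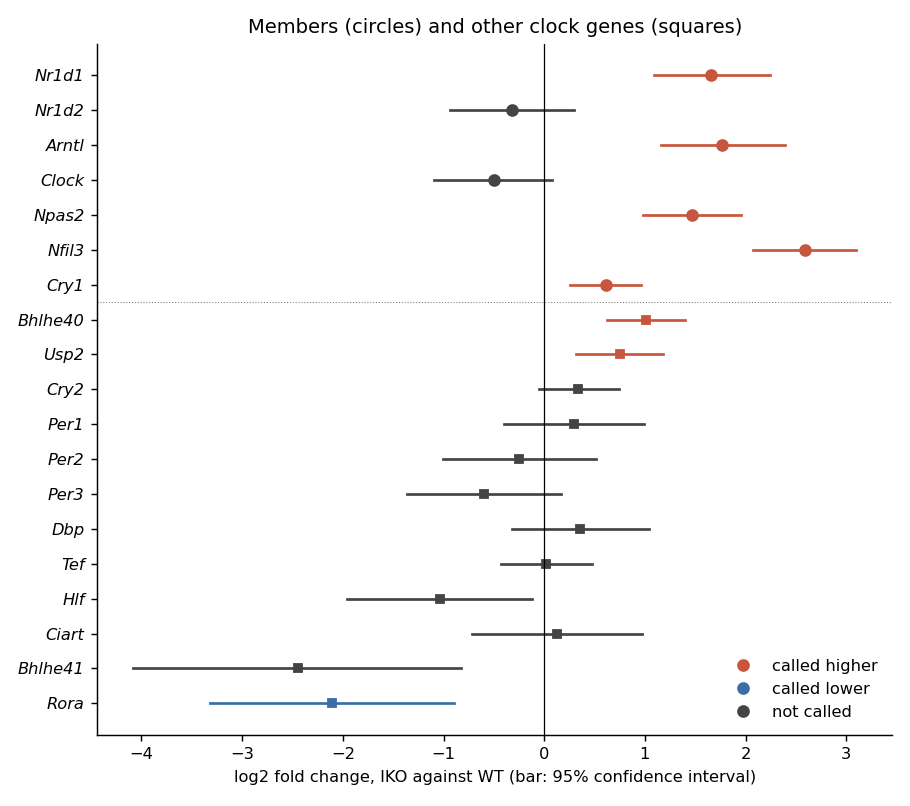
Log2 fold change of IKO against WT mice with 95% confidence intervals for the 7 genes (circles, above the dotted line) and 12 other clock genes (squares). Red marks genes called with a higher level, blue a lower level and grey no call, and Nr1d1, Arntl, Npas2, Nfil3 and Cry1 stand to the right of 0 while Nr1d2 and Clock span it.

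Tbl1x and Tbl1xr1, which encode bridging subunits of the corepressor complex that REV-ERB receptors recruit, were higher, with log2 fold changes of 0.93 ± 0.18 and 1.43 ± 0.16 (SE). Hdac3, its catalytic subunit, had a log2 fold change of 0.52 ± 0.16 (SE) at an edgeR adjusted p of 0.0542. Of 10 genes outside the clock that REV-ERB receptors are known to repress, mostly in other tissues, 5 had enough counts to be tested. Insig2, an inhibitor of SREBP processing, was at 27.4 to 45.7 CPM in WT and 47.3 to 101 CPM in IKO mice (log2 fold change 1.15 ± 0.20, SE, at an edgeR adjusted p of 0.00552). G6pc, the last enzyme of glucose production, was also called, with a log2 fold change of 2.17 ± 0.50 (SE) at an edgeR adjusted p of 0.0182 and overlapping ranges. Apoc3, Pck1 and Ulk1 were not called, with log2 fold changes of 0.14, 0.87 and -0.12.

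How the 7 genes varied together from mouse to mouse was described within each genotype, as Pearson's r of log2 CPM over 7 mice, with no test, since the genotypes themselves are far apart. With 7 libraries that share depth and tissue composition within each value, r is imprecise. Where the values of a gene fell into 2 sets with a gap of at least 0.5 of their range, r was not given, which applied to Clock in IKO and to Nfil3 in WT mice. Of the 21 pairs, 10 had a value in both genotypes. In these, r was above 0 in both genotypes for 4 pairs, below 0 in both for 1 pair and of opposite sign for 5 pairs.

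In WT mice, r among Nr1d1, Nr1d2, Npas2 and Cry1 was 0.67 to 0.94, with Nr1d1 tied to Nr1d2 and Npas2 largely through WT 7. The correlation was 0.94 for Nr1d2 and Npas2 (Spearman's rho 0.89), 0.90 for Nr1d2 and Cry1 (rho 0.93), 0.83 for Npas2 and Cry1 (rho 0.82) and 0.80 for Nr1d1 and Cry1 (rho 0.75). Without the 2 mice farthest from the median of the first gene, r was 0.77, 0.61, 0.80 and 0.65 in the same order. WT 7 was the lowest library for all 4 genes, and for Nr1d1 and Npas2 the r of 0.67 became -0.08 without the 2 farthest mice. Leaving out WT 7 alone took that pair to 0.19. In IKO mice r was 0.02 for Nr1d2 and Npas2, 0.58 for Nr1d2 and Cry1, 0.26 for Npas2 and Cry1 and -0.47 for Nr1d1 and Cry1. Without the 2 mice farthest from the median of the first gene, these were 0.63, 0.60, -0.89 and -0.31. For Nr1d2 and Npas2 the value was -0.62 without IKO 2 and 0.65 without IKO 5, and for Npas2 and Cry1 it was -0.81 without IKO 2, so these IKO values depended on single mice. The differences between the genotypes were not tested.

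Nr1d1 and Nr1d2 varied in the same direction in WT (r = 0.69, rho 0.54) and in opposite directions in IKO mice (r = -0.57, rho -0.86). Without the 2 mice farthest from the median of Nr1d1, r was 0.22 in WT and -0.75 in IKO mice, and without WT 7 alone the WT value was 0.27. For Nr1d1 and Arntl, the repressor and its target, Pearson's r was weakly negative within both genotypes (-0.34 in WT and -0.22 in IKO mice). The genotype with more Nr1d1 nevertheless also had more Arntl. Without the 2 farthest mice r was -0.28 and -0.09. The rank values differed more, with a rho of -0.71 in WT and of -0.04, near 0, in IKO mice.

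Among the IKO mice, the r of Arntl was 0.76 with Nfil3 (rho 0.79), 0.75 with Npas2 (rho 0.39) and 0.79 with Cry1 (rho 0.46). IKO 2 was the lowest library for all 4 of these genes. Without the 2 mice farthest from the median of Arntl, r was 0.46 with Nfil3, 0.79 with Npas2 and -0.59 with Cry1. Without IKO 2 alone it was 0.47 with Nfil3, 0.08 with Npas2 and 0.38 with Cry1, so these values rest largely on that mouse. In WT mice r was -0.24 for Arntl with Npas2 and -0.40 with Cry1, and without WT 4 these were -0.84 and -0.82.

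**Figure D4:**
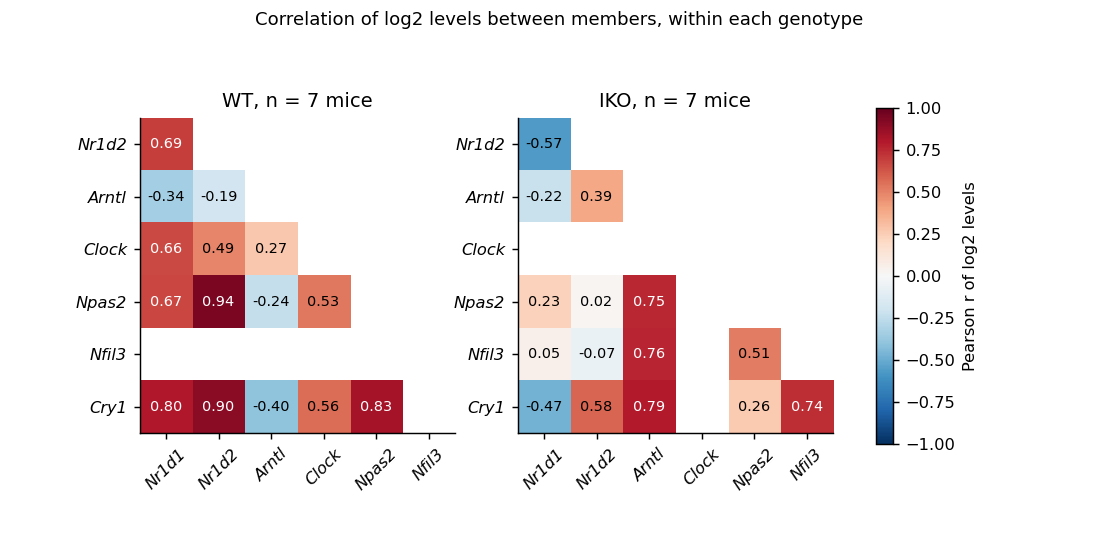
Pearson's r of log2 CPM for each pair of the 7 genes within WT (left) and within IKO (right) mice, n = 7 each, with red for positive and blue for negative values. Blank cells in the rows and columns of Nfil3 (WT) and Clock (IKO) are pairs without a value, and the values among Nr1d1, Nr1d2, Npas2 and Cry1 are 0.67 to 0.94 in WT and -0.57 to 0.58 in IKO mice.

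Libraries also differed in how levels related to transcript length. The Spearman correlation between a gene's deviation from its genotype mean and its length, over all genes tested, was -0.36 in IKO 2 and -0.23 in IKO 4, and 0.39, 0.20 and 0.21 in IKO 3, IKO 6 and IKO 7. In WT libraries it was -0.14 to 0.15. Clock, the longest of the 7 genes at 13727 bases, and Nr1d2 (5409 bases) were low in IKO 2 and IKO 4 and high in IKO 3, IKO 6 and IKO 7, and also low in IKO 1 and IKO 5, whose length correlations were -0.01 and near 0. Arntl (7523 bases) was low in IKO 2 but at 27.0 CPM in IKO 4, close to the IKO median. With this trend removed in each library, r among IKO mice was 0.92 for Arntl and Nfil3 and -0.55 for Nr1d1 and Nr1d2, and the log2 fold changes were -0.31 for Clock, -0.37 for Nr1d2 and 1.95 for Arntl.

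Dbp and Per2 served as readouts outside the 7 genes. Of 28 possible correlations of a member with Dbp or Per2 within a genotype, 24 were tested with exact two-sided permutation tests over all pairings and Benjamini-Hochberg adjustment over the 24, and 0 passed an adjusted p of 0.05. By Pearson's r, 2 had an unadjusted p under 0.05, and by Spearman's rho 1 did. Arntl and Dbp, which peak at different times of day in many tissues, had r = -0.87 in WT mice (exact permutation p = 0.00278, adjusted p = 0.0667) and rho = -0.93 (exact permutation p = 0.00675, adjusted p = 0.162). Without the 2 mice farthest from the Arntl median, r was -0.98. WT 4, at the lowest Arntl level, had the highest Dbp level, 126 CPM. In IKO mice r was -0.70 for this pair (exact permutation p = 0.0581, adjusted p = 0.271) and rho was -0.71 (exact permutation p = 0.0881, adjusted p = 0.303). Nr1d2 and Per2 had r = 0.89 in IKO mice (exact permutation p = 0.0135, adjusted p = 0.162) and rho = 0.75 (exact permutation p = 0.0663, adjusted p = 0.303), and 0.97 without the 2 mice farthest from the Nr1d2 median. In WT mice r was 0.64 for Nr1d2 and Per2 (exact permutation p = 0.116, adjusted p = 0.279).

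**Figure D5:**
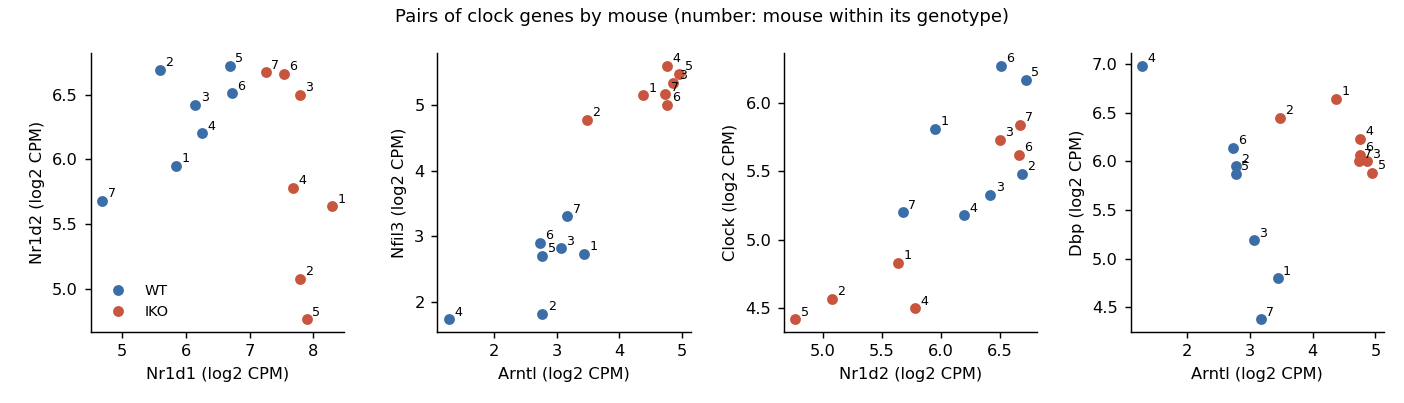
Log2 CPM of 4 pairs of clock genes in each WT (blue) and IKO (red) mouse, with the number of the mouse in its genotype. Nr1d1 and Nr1d2 have a positive r in WT, which rests largely on WT 7, and a negative r in IKO mice. Arntl and Nfil3 form separate clouds by genotype. Nr1d2 and Clock show IKO 3, 6 and 7 apart from IKO 1, 2, 4 and 5. Dbp tends to be lower where Arntl is higher within each genotype.

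The genes whose levels across mice were most like those of Nr1d1 and Arntl were sought among 10662 protein-coding genes, by the smaller of the r in WT and the r in IKO mice. For Nr1d1 the closest were Brd2 (r = 0.83 in WT and 0.85 in IKO mice), Cep170b (0.83 and 0.80), Usp22 (0.78 and 0.79), Pard6b (0.87 and 0.76) and Zfand2a (0.76 and 0.79). None of these 5 was called between the genotypes, with log2 fold changes of -0.00 to 0.19. The most opposite were Prodh (-0.79 and -0.74), Pank4 (-0.71 and -0.86), Osbpl8 (-0.73 and -0.70), Dpy19l1 (-0.69 and -0.72) and Zfp65 (-0.68 and -0.76). Of these, Pank4 (log2 fold change -0.63), Osbpl8 (-1.15), Dpy19l1 (-1.07) and Zfp65 (-0.88) were called lower in IKO mice and Prodh was not called. Among all genes tested, 4.28% were called lower, and a link of these calls to Nr1d1 was not tested. In WT mice, r was -0.20 for Osbpl8 and -0.36 for Dpy19l1 without the 2 mice farthest from the Nr1d1 median. No other member was among them.

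For Arntl the 5 closest genes included Lrrc56 (r = 0.94 in WT and 0.99 in IKO mice), Zfp84 (0.93 and 0.96), Bid (0.97 and 0.92) and Bcl9 (0.89 and 0.85). The most opposite were Ndufb10 (-0.96 and -0.92), Ndufs5 (-0.92 and -0.92), Rab3a (-0.94 and -0.91), Cox4i1 (-0.90 and -0.94) and Psmb5 (-0.90 and -0.94). These values leaned on few mice. Without the 2 mice farthest from the Arntl median, r for Zfp84 was 0.48 in WT and -0.18 in IKO mice, and only Bid (0.93 and 0.82) and, in IKO mice, Lrrc56 (0.95) stayed above 0.6 among these 4. For the 5 most opposite genes r was then -0.48 to -0.13 in WT and -0.58 to 0.37 in IKO mice. With 7 mice and 10662 genes, high values are found by the search itself, and the names are a description of these libraries.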

How the data were processed

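Ileum mucosa RNA of 14 mice was sequenced by the authors as paired reads of 150 bases. The submitters' processing notes name HISAT2 2.0.5, featureCounts 1.5.0-p3, DESeq2 1.16.1 and the build mm10. The deposited counts are whole numbers per gene without normalization, and strandedness is not stated. The deposited FPKM equal the counts per length times 1 factor per library, and were used for levels per length and as an alternative. Titles gave the genotypes, and columns headed KO hold the IKO libraries.

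Genes passing filterByExpr were fitted with edgeR's quasi-likelihood test after TMM normalization, with genotype as the only term. The p-values were adjusted over all 13846 genes. Standard errors are the fold change divided by the root of F. Log2 CPM had a prior count of 2. The fits were tested on simulated counts with known changes. Of 100 genes changed by a log2 of 1, 36 were called, and of 100 changed by 2, 83 were called. A gene without a call can therefore still differ. Coordinates are those of the files, and exons came from GENCODE M21.

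The 7 genes and the lists were chosen with earlier results of these data known. Named are the 7 genes, called clock genes, Ncor1, overlapping genes and the 5 genes most alike or opposite to Nr1d1 and Arntl. The rule on separate sets and the removal of the length trend were added after seeing the data. Mice with the same number in both genotypes are not pairs.

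Depth was 14749669 to 21557468 counts per library. The alternatives were DESeq2, RLE factors, 3 filters, limma on log2 FPKM, voom with quality weights, a replicate block and fits without libraries. Results for some single genes are left out of the text.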

Additional observations from a re-analysis of the deposited data

Results flagged for a closer look

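For the 7 genes, Dbp and Per2, the lowest and highest mouse of each genotype were compared with the nearest other mouse by Dixon's ratio on log2 CPM, in 18 groups, of which chance would mark about 1 in 20. Arntl was marked in both genotypes. In WT mice, WT 4 was set apart at the low end, with 2.33 CPM against 6.50 CPM in WT 6, a gap of 0.668 of the range. In IKO mice, IKO 2 was set apart at the low end, with 11.0 CPM against 20.6 CPM in IKO 1, a gap of 0.606 of the range. WT 4 also held the most smooth muscle RNA, and IKO 2 had the strongest negative relation of level to length (rho -0.36). Their part in these low values was not tested.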

How the results depend on the processing

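Nr1d1, Arntl, Npas2 and Nfil3 were called with a higher level in IKO mice in all 26 alternatives, with log2 fold changes of 1.5 to 1.79, 1.13 to 1.95, 1.32 to 1.59 and 2.32 to 2.72. Nr1d2 (-0.45 to -0.18) and Clock (-0.64 to -0.31) were called in none of them. Cry1 lost its call in 12 of 26, with 0.54 to 0.70 throughout. These were the fit without a low-count filter (adjusted p = 0.0710), the replicate block (adjusted p = 0.0944), the fit without WT 4 and IKO 4, and those without WT 1, WT 3, WT 4, WT 7, IKO 1, IKO 3, IKO 4, IKO 5 or IKO 7. The count of members called was therefore 4 to 5, and 4 to 5 without each library in turn. Usp2 and Rora lost their calls in 10 of 26 and 13 of 23 alternatives. The adjusted p was 0.00475 to 0.0944 for Cry1.

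Among all genes, 1200 were called (607 higher), against 2571 with DESeq2, 1889 with voom quality weights, 606 without WT 4 and IKO 4 (396 higher), 508 without a filter (346 higher), 614 with limma on unfiltered FPKM (454 higher), 1036 and 1023 with limma on filtered FPKM (708 and 706 higher), and 515 to 1371 without 1 library. The median log2 fold change of all genes was -0.09, and 0.02 and 0.04 in the filtered FPKM fits.

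Under the replicate block, 362 genes were called (226 higher) and 4 of the 7 members. Same-numbered mice had correlations of -0.31 to 0.23, and 1 of 7 WT mice correlated best with its own number.

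Without IKO 1, the count of correlations with Dbp or Per2 past an adjusted p of 0.05 was 2 (exact permutation tests): Arntl and Dbp in WT (r = -0.87) and Npas2 and Dbp in IKO mice (r = -0.97, n = 6), at an adjusted p of 0.0333 each. It was 0 without each other library, a range of 0 to 2. Over 11 alternatives, the correlation of Nr1d1 and Arntl was -0.50 to -0.21 in WT and -0.47 to -0.09 in IKO mice. These are ranges over the alternatives and not confidence intervals. With 7 mice a genotype, r itself is imprecise.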
